A study of Mus musculus with 6 samples.

Results

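Zinc finger protein genes carrying the mouse symbols Zfp, Zkscan and Zscan were compared between a Myo1e KO podocyte-derived cell line and a WT mouse podocyte line. The set held the genes whose symbol was Zfp followed only by digits, or began with Zkscan or Zscan, and whose mean over the 6 libraries was at least 3 on the deposited log2 scale of CPM (read counts scaled to library size). Zfp36, an RNA-binding CCCH finger protein that destabilizes mRNA, was left out by the rule. Of the other 328 such symbols among 12803 listed genes, 225 reached that level, namely 209 Zfp, 8 Zkscan and 8 Zscan genes, and 103 did not. The genes were thus chosen by their measured mean level, and the levels themselves are given as a description, without a test. Just inside the threshold lay Zfp946, Zfp995 and Zfp956, at mean log2 levels of 3.04, 3.02 and 3.00, and just outside it Zfp101, Zfp772 and Zfp28, at 2.99, 2.98 and 2.98.

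The KO group held 3 libraries from a podocyte-derived line labelled as a KO of myosin 1e, a membrane-associated motor protein mutated in some inherited kidney disease. The WT group held 3 libraries from the Mundel line, a conditionally immortalized mouse podocyte line. Each genotype was 1 line, so genotype and line cannot be told apart, and the labels used here do not say how the KO line was derived. The heterozygous genotype that the design text also names is not analysed here. Libraries held 35447096 to 41360689 reads in listed genes in KO cells and 35763961 to 42106461 in WT cells, at which 3 reads were worth 0.0703 to 0.0856 CPM. Myo1e averaged 17.3 ± 1.4 CPM in KO cells and 177 ± 8.4 CPM in WT cells (SD, n = 3 each), a log2 fold change of -3.35 (adjusted p = 2.1e-08, limma). The exact permutation test of its 6 values gave p = 0.1, the smallest that 3 against 3 libraries allow.

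Markers of cell type also separated the lines. Of 10 podocyte markers 5 were listed and are used here. Synpo averaged 209 CPM in KO cells and 681 CPM in WT cells, whereas Podxl averaged 106 CPM in KO cells and 50.4 CPM in WT cells. Summed over the list, podocyte markers came to 619 to 827 CPM in KO libraries and 961 to 1087 CPM in WT libraries. Of 13 tubular epithelial markers 8 were listed, with a sum of 5405 to 5902 CPM in KO libraries and 1560 to 2443 CPM in WT libraries. Within that list the keratin gene Krt8 averaged 2065 CPM in KO cells and 0.405 CPM in WT cells, whereas Lrp2 averaged 14 CPM in KO cells and 331 CPM in WT cells. Mesangial and fibroblast markers, 4 of 10 listed, summed to 326 to 648 CPM in KO libraries and 1408 to 1482 CPM in WT libraries. Of 7 endothelial markers only 1, Flt1, was listed, and it reached at most 2.29 CPM in KO libraries and 14.7 CPM in WT libraries. Leukocyte markers, 2 of 7 listed, summed to at most 75.5 CPM in KO libraries and 56.9 CPM in WT libraries. Of these, Csf1r averaged 60.6 CPM in KO cells and 44.3 CPM in WT cells, and Cd68 2.35 and 2.74 CPM. The part of these marker differences in the zinc finger results was not tested.

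C2H2 zinc finger proteins bind DNA, and some bind RNA, through tandem fingers that each read a few bases. Many mouse members carry a KRAB box, which recruits Trim28 and through it the histone methyltransferase Setdb1, HP1 proteins and the NuRD complex to silence retroelements and imprinted loci. Zkscan and Zscan proteins carry a SCAN domain, through which such proteins pair with one another. KRAB members arose by gene duplication and lie in large arrays of neighbouring genes.

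Of the 225 genes, 52 were higher and 66 lower in KO cells at an adjusted p under 0.05 in a limma fit over 12616 genes, and 107 were not called. The called share was 52.4%, against 68.1% of all genes tested and 65.7% of the 9631 tested genes at a mean of at least 3 log2 CPM. By direction, 23.1% were higher and 29.3% lower, against 34.3% and 33.8% of all genes tested and 34.9% and 30.9% at that mean level. At least a 2-fold change was called for 7 genes in the higher and 12 in the lower direction, together 8.44% of the set. That share was 27.9% over all genes tested (11.7% higher and 16.2% lower) and 17.4% at a mean of at least 3 log2 CPM (7.02% higher and 10.4% lower). The median size of the log2 fold change, without its sign, was 0.29 for the zinc finger genes and 0.51 for all genes tested, and 0.41 for tested genes at a mean of at least 3 log2 CPM. The signed median was -0.02 for the zinc finger genes and 0.01 for all genes tested. The libraries of the lines did not overlap for 143 of the 225 genes (63.6%), compared with 73.5% of all genes tested and 71.6% at that mean level. The zinc finger genes had a lower median level, 4.61 log2 CPM against 5.61 for all genes over the threshold, and the part of this difference in the called shares was not tested.

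**Figure D1:**
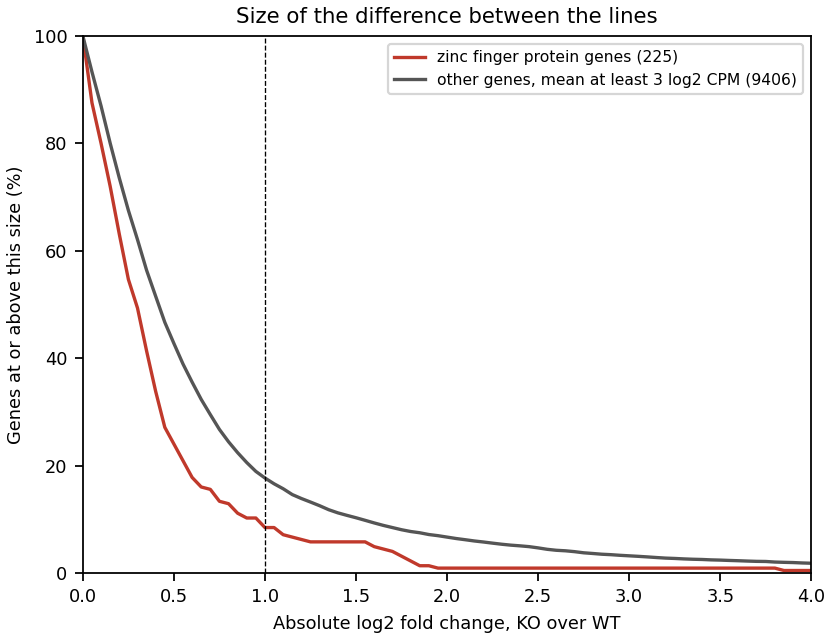
Share of genes (percent, vertical axis) whose log2 fold change, KO over WT without its sign, was at least the value on the horizontal axis, for the 225 zinc finger genes and 9406 other genes at a mean of at least 3 log2 CPM. At 0.5 the shares were 24.0% of zinc finger genes and 42.7% of other genes, and at 2 they were 0.889% and 6.67%.

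The pool as a whole differed little in total. Summed CPM over the 225 genes was 8101, 8498 and 7877 in KO libraries and 8839, 8902 and 8745 in WT libraries, without overlap. Without Zfp91, the sums were 7954, 8341 and 7737 in KO libraries and 8266, 8388 and 8300 in WT libraries, and the groups overlapped. The genes with a KRAB box summed to 2329, 2432 and 2355 CPM in KO libraries and 2385, 2370 and 2368 CPM in WT libraries, also with overlap.

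The 12 genes that fell most in KO cells were taken from called genes whose groups did not overlap. They held 4 of the transcription factors without a KRAB box listed below by role and 4 KRAB genes. Zfp395 (chr14:65358389-65398930, plus strand, GRCm38), a DNA-binding protein whose human counterpart is ZNF395, had 3.17, 4.25 and 3.34 CPM in KO libraries, against 90.9, 77.7 and 53.1 CPM in WT libraries. Every KO library lay far below every WT library, at a log2 fold change of -4.33 (SE 0.21, adjusted p = 4.4e-07, limma). Zfp532 on chromosome 18, whose human counterpart is found in a complex with those of Zfp592 and Zfp687, had 2.88, 3.80 and 2.04 CPM in KO libraries, against 37.9, 41.7 and 41.7 CPM in WT libraries. Its log2 fold change was -3.83 (SE 0.21, adjusted p = 9.9e-07), again without overlap. Zfp395 and Zfp532 were the 2 genes of the set with a log2 fold change of at least 2 in size. Zfp704, a relative of Zfp395, had 106, 109.9 and 75.8 CPM in KO libraries, against 174, 199 and 193 CPM in WT libraries, a log2 fold change of -0.97 (adjusted p = 0.00035).

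Zfp91 (chr19:12763660-12796126, minus strand), a ubiquitin ligase of the noncanonical NF-kB pathway, had 147, 157 and 140.1 CPM in KO libraries, against 573, 514 and 445 CPM in WT libraries. Its log2 fold change was -1.78 (SE 0.10, adjusted p = 1.5e-06). Per kb of exon it averaged 14.7 CPM in KO cells and 50.8 CPM in WT cells, the highest level per kb of the set in WT cells and not in KO cells, where Zfp106 was highest at 32.1 CPM per kb. Zfp91 overlaps Cntf on the same strand, so that reads may be shared. Cntf itself averaged 0.418 CPM in KO cells and 2.698 CPM in WT cells.

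Further genes fell at least 2-fold. Zfp536, a repressor of retinoic acid-induced neuronal differentiation, had 8.81, 7.96 and 7.75 CPM in KO libraries, against 28.6, 26.7 and 29.0 CPM in WT libraries (log2 fold change -1.78, adjusted p = 1.6e-06). Zfp467, known for its part in adipocyte and osteoblast differentiation, had 7.46, 6.25 and 8.36 CPM in KO libraries, against 29.8, 24.8 and 18.9 CPM in WT libraries (log2 fold change -1.72, adjusted p = 5.8e-05). Zfp367 had 9.67, 8.87 and 8.28 CPM in KO libraries, against 23.0, 27.2 and 30.1 CPM in WT libraries (log2 fold change -1.58, adjusted p = 1.2e-05). The groups of these 3 genes did not overlap, as the choice required. The KRAB box genes Zfp948, Zfp605, Zfp949 and Zfp950 had log2 fold changes of -1.82, -1.65, -1.64 and -1.11. Zfp41 and Zfp740, which matched no KRAB box, had -1.09 and -1.08.

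The genes that rose most, taken by the same rule, were Zfp941, Zfp469 and Zkscan7. Zfp941 (chr7:140807449-140822178, minus strand), a KRAB zinc finger gene, had 18.1, 22.2 and 19.9 CPM in KO libraries, against 5.08, 5.36 and 5.15 CPM in WT libraries. The groups were far apart, with a log2 fold change of 1.94 (SE 0.12, adjusted p = 2.3e-06). Zfp941 overlaps Gm45785, a protein-coding gene on the same strand that is not among the listed genes, so that reads may be shared. Zfp469, whose human counterpart ZNF469 is mutated in brittle cornea syndrome, had 110.4, 104 and 53.0 CPM in KO libraries, against 17.4, 26.0 and 29.9 CPM in WT libraries. Its log2 fold change was 1.83 (SE 0.29, adjusted p = 0.00065), and KO replicate 3 was the lowest of its group. With each library left out in turn, this value ran from 1.603 to 2.17. Zfp469 likewise overlaps the protein-coding gene Gm20388, on the same strand and not listed. Zkscan7 had 15.8, 14.1 and 16.2 CPM in KO libraries, against 4.94, 4.06 and 5.004 CPM in WT libraries, a log2 fold change of 1.72 (adjusted p = 1e-05). It overlaps A530083I20Rik on the opposite strand, and the strand setting of the authors' counting is not given in the sources used here.

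Zfp185, a LIM protein that binds actin and holds no C2H2 finger, had 43.4, 43.7 and 50.6 CPM in KO libraries, against 16.6, 16.3 and 13.9 CPM in WT libraries (log2 fold change 1.56, adjusted p = 4.5e-06). Zfp2, Zfp760 and Zfp37 had log2 fold changes of 1.22, 1.15 and 1.09, which completes the 7 genes that rose at least 2-fold. Below that size came Zfp799 at 0.96, Zfp827 at 0.89, Zfp7 at 0.84, Zfp809 at 0.80 and Zfp652 at 0.74, and all 5 were called.

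**Figure D2:**
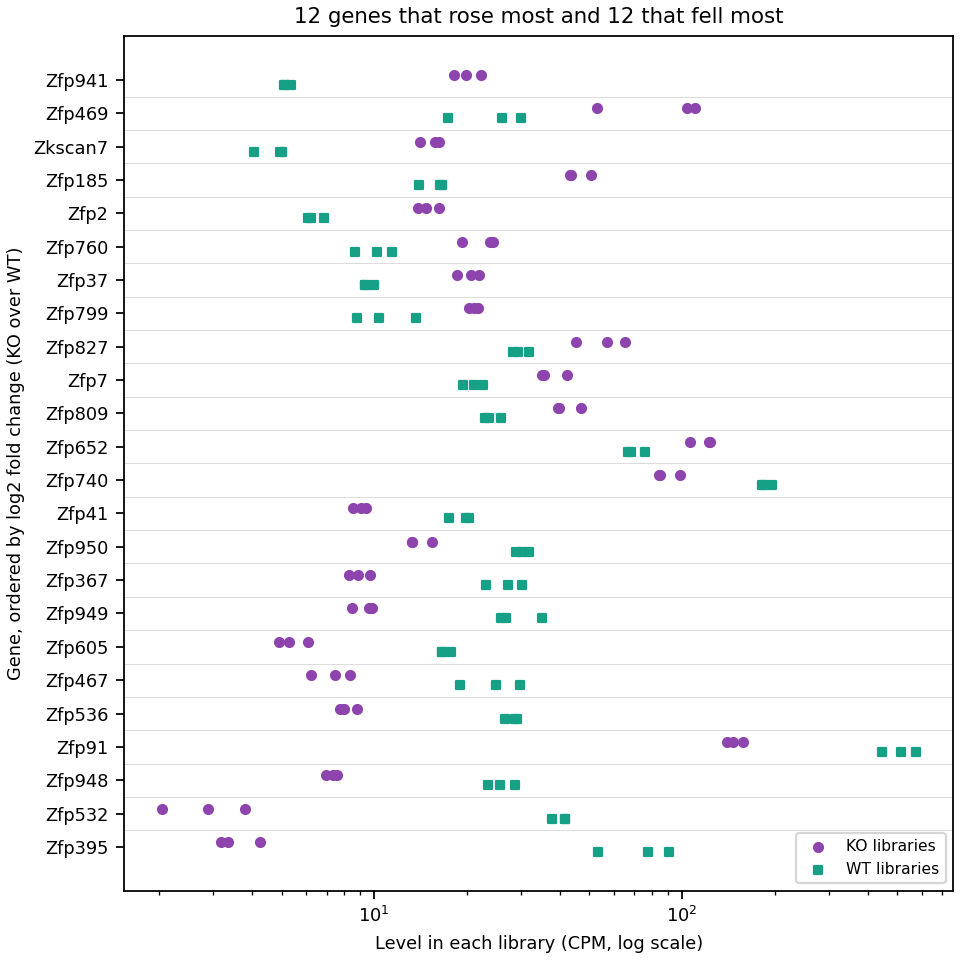
CPM on a log axis in each of the 3 KO libraries and 3 WT libraries for the 12 genes that fell most and the 12 that rose most. Each point is 1 library (circles for KO, squares for WT). These 24 genes were taken from called genes whose KO and WT libraries did not overlap. The absence of overlap here thus follows from the choice.

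By role, a chosen list of transcription factors without a KRAB box held 28 genes, of which 3 rose and 12 fell, or 10.7% and 42.9%. Over all genes tested, 34.3% were higher and 33.8% lower. The list was made with earlier results of these data known and is only part of the genes without a KRAB match. Of all 119 such genes in the set, 20.2% rose and 33.6% fell. Those that rose were Zfp462, Zfp652 and Zfp827. Zfp462, a partner of histone H3K9 methyltransferases with 33 finger matches, had 146, 159 and 130.4 CPM in KO libraries, against 87.8, 93.1 and 86.9 CPM in WT libraries. Its log2 fold change was 0.70 (adjusted p = 0.00015). Zfp652, a transcriptional repressor, averaged 117 ± 9.8 CPM in KO cells and 70.2 ± 5.0 CPM in WT cells (SD, n = 3 each). It overlaps the protein-coding genes B130006D01Rik and Phospho1 on the same strand, neither of them listed, so that reads may be shared. Zfp827, whose human counterpart brings the NuRD complex to telomeres, averaged 55.8 ± 10 CPM in KO cells and 29.7 ± 1.8 CPM in WT cells.

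Beside Zfp395, Zfp536, Zfp467, Zfp367 and Zfp704, the genes of this list that fell did so by small amounts. Zfp608, Zfp703 and Zfp131 had log2 fold changes of -0.43, -0.43 and -0.39. Zfp516, Zfp592, Zfp384 and Zfp148 had -0.38, -0.35, -0.32 and -0.24. The call of Zfp703 failed without KO replicate 3, WT replicate 1 or WT replicate 3 and with no intensity trend (adjusted p up to 0.119 in limma). That of Zfp131 failed without KO replicate 1, WT replicate 2 or WT replicate 3 (up to 0.0657), and that of Zfp592 without WT replicate 2 (0.0684). The 13 genes not called ran from -0.21 to 0.27. The list's median was -0.16, beside 0.01 over all genes tested.

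Among 11 KRAB genes with described targets, 3 rose and 3 fell, or 27.3% in each direction, against 34.3% higher and 33.8% lower over all genes tested. Zfp57, which keeps DNA methylation at imprinted loci, had 9.08, 9.64 and 12.8 CPM in KO libraries, against 20.2, 20.3 and 21.7 CPM in WT libraries. The groups did not overlap, and the log2 fold change was -0.996 (SE 0.14, adjusted p = 0.00035). Zfp445, which acts with Zfp57 at imprinted loci, averaged 119 ± 8.2 CPM in KO cells and 101 ± 4.0 CPM in WT cells (SD, n = 3 each). Its log2 fold change was 0.25 (adjusted p = 0.021, limma), and the call failed without KO replicate 2, WT replicate 1 or WT replicate 2, with adjusted p-values between 0.0178 and 0.0724 over the alternatives. Zfp809, a silencer of proviral DNA in embryonic cells, had 39.9, 46.9 and 39.5 CPM in KO libraries, against 25.9, 22.9 and 23.5 CPM in WT libraries (log2 fold change 0.80, adjusted p = 0.00016). Zfp37 rose as given above. Zfp90 and Zfp30 had log2 fold changes of -0.42 and -0.36, and the call of Zfp30 failed without replicate 1 or 2 of either line, with the replicate block and with quantile normalization (adjusted p up to 0.137 in limma). Zfp568, a repressor of a placental promoter of Igf2, averaged 55.8 ± 7.2 CPM in KO cells and 44.4 ± 6.4 CPM in WT cells, and was not called (log2 fold change 0.33, adjusted p = 0.056). The median of the 11 was 0.03.

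The genes with roles on RNA, ribosomes and translation numbered 7, with 2 higher and 2 lower (57.1% called, against 68.1% of all genes tested). Zfp106, an RNA-binding protein needed for neuromuscular function, had the highest mean log2 CPM of the set, with 309.9, 356 and 337 CPM in KO libraries, against 231, 259 and 259 CPM in WT libraries. Its log2 fold change was 0.42 (SE 0.09, adjusted p = 0.0027). Zfp326, a subunit of the DBIRD complex that links transcription to splicing, averaged 26.4 ± 0.75 CPM in KO cells and 38.4 ± 0.50 CPM in WT cells (log2 fold change -0.54, adjusted p = 0.00035). Zfp598, which ubiquitinates collided ribosomes, had a log2 fold change of 0.22, and Zfp346, which binds double-stranded RNA, one of -0.28. The call of Zfp598 failed without replicate 1 or 2 of either line, with the replicate block and with no intensity trend (adjusted p up to 0.117 in limma). That of Zfp346 failed without any 1 KO library or WT replicate 3, and with quantile normalization (up to 0.0915). Zfp638, whose human counterpart silences retroviral DNA, averaged 137 ± 6.7 CPM in KO cells and 133 ± 4.8 CPM in WT cells, and was not called (log2 fold change 0.04, adjusted p = 0.62, limma).

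Of 7 genes with roles at chromosomes, in DNA repair or in ubiquitin and SUMO transfer, 2 rose and 2 fell, again 57.1% called against 68.1% of all genes tested. Zfp830 and Zfp277 had log2 fold changes of 0.51 and 0.35, Zfp365 had -0.71 and Zfp91 -1.78. The call of Zfp277 failed without KO replicate 1, KO replicate 3 or WT replicate 3 (adjusted p up to 0.063 in limma). Zfp207, a kinetochore protein that stabilizes BUB3, averaged 163 ± 6.5 CPM in KO cells and 160 ± 16 CPM in WT cells (log2 fold change 0.02, adjusted p = 0.82). Zfp664, next in mean log2 CPM after Zfp106 and Zfp91, averaged 224 ± 13 CPM in KO cells and 197 ± 12 CPM in WT cells, and was not called (log2 fold change 0.18, adjusted p = 0.078).

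**Figure D3:**
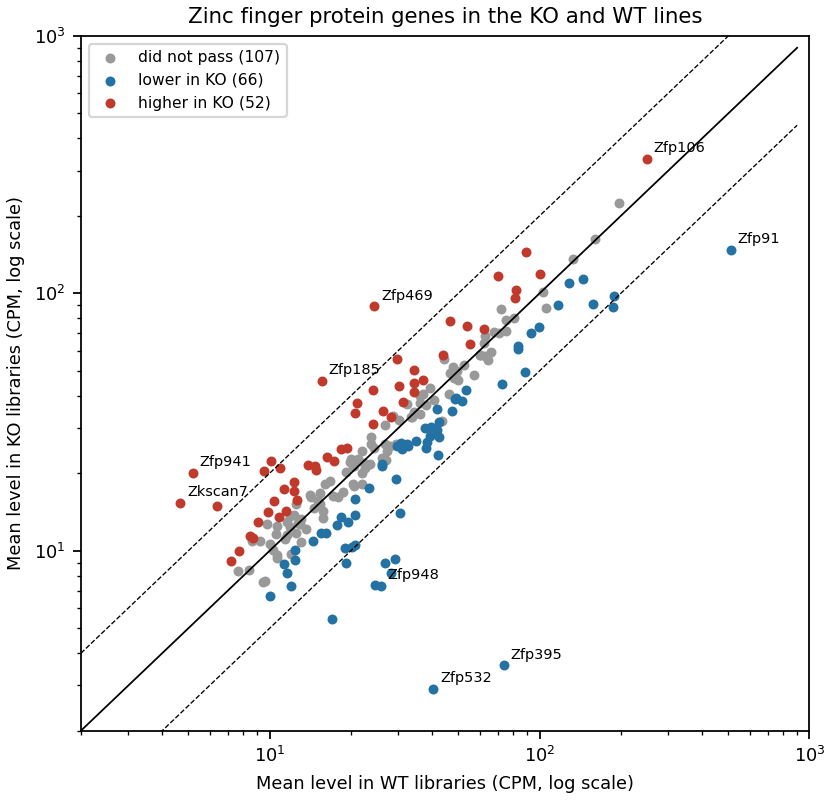
Mean CPM in KO cells against mean CPM in WT cells for the 225 zinc finger genes, both on log axes, with the solid diagonal marking equal levels and dashed lines a 2-fold difference. Colours mark the 52 genes called higher, the 66 called lower and the 107 not called. Zfp395 and Zfp532 lie farthest from the diagonal, and Zfp106 and Zfp91 are at the top of the range.

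Structure was read from the translated GENCODE proteins, which were found for 223 of the 225 genes and not for Zfp469 and Zfp267. A KRAB box matched in 104 genes, of which 27 rose and 26 fell, and the median of their log2 fold changes was 0.01. It did not match in 119, of which 24 rose and 40 fell, with a median of -0.05. A SCAN domain matched in 27 genes, of which 10 rose and 3 fell, with a median of 0.12. Of the 99 genes with neither match, 17 rose and 38 fell, with a median of -0.08. The called shares over all genes tested, 34.3% higher and 33.8% lower, stand beside these counts, and no difference between the classes was tested. Fingers numbered 9 in the median and 33 at most. Genes with 10 or more fingers numbered 110, of which 25 rose and 27 fell. Of 35 genes with 1 to 4 fingers, 7 rose and 15 fell.

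Of the 8 Zkscan genes, 4 rose and 1 fell, and of the 8 Zscan genes, 2 rose and 1 fell, where 34.3% of all genes tested were higher and 33.8% lower. Zkscan7, Zkscan6, Zkscan3 and Zkscan17 had log2 fold changes of 1.72, 0.59, 0.40 and 0.20, and Zkscan14 had -0.49. The call of Zkscan17 failed without any 1 library other than KO replicate 3, with the replicate block, with no intensity trend and with the total of listed genes as scale (adjusted p 0.0427 to 0.154 in limma). Zscan21, second in level per kb in KO cells, averaged 96.3 ± 4.3 CPM in KO cells and 81.2 ± 1.8 CPM in WT cells (log2 fold change 0.25, adjusted p = 0.013). Its call failed without WT replicate 2 (adjusted p = 0.0645). Zscan29 had a log2 fold change of 0.23 and Zscan22 one of -0.39, and the call of Zscan29 failed without replicate 1 or 2 of either line and with the replicate block (adjusted p up to 0.136).

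Other zinc finger families are given beside the set, of which 23.1% rose and 29.3% fell, and beside all genes tested at 34.3% higher and 33.8% lower. Of 35 Zbtb genes at a mean of at least 3 log2 CPM, 12 were higher and 6 lower, and of 16 Klf and Sp genes 2 were higher and 9 lower, and no difference between families was tested. Among the 103 rows under the threshold, 22 reached a mean of 3 log2 CPM in 1 of the lines, of which 7 rose and 12 fell. These had passed through the line in which they were high, so a difference was built into their choice. Zfp521, an inhibitor of the B-cell factor EBF1, had 5 reads in the 3 KO libraries together and 4112 in the WT libraries. Zfp275 had 1 read in the KO libraries and 6577 in the WT libraries.

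The genes of the KRAB silencing pathway and of H3K9 and DNA methylation were described from a list of 33 names, of which 31 were tested. Of these, 9 were higher and 14 lower in KO cells (74.2% called, against 68.1% of all genes tested), with a median log2 fold change of -0.12. Trim28, the corepressor that KRAB boxes bind, averaged 247 ± 13 CPM in KO cells and 297 ± 16 CPM in WT cells (log2 fold change -0.26, adjusted p = 0.017, limma). Its call failed without KO replicate 1, WT replicate 2 or WT replicate 3 (adjusted p up to 0.0756 in limma). Setdb1 averaged 68.3 ± 3.3 CPM in KO cells and 70.7 ± 3.6 CPM in WT cells (log2 fold change -0.05, adjusted p = 0.59).

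Uhrf1, which directs Dnmt1 to newly replicated DNA, averaged 11.9 ± 2.5 CPM in KO cells and 57.5 ± 16 CPM in WT cells (log2 fold change -2.25, adjusted p = 3.6e-05). Dnmt1 averaged 54.6 ± 9.6 CPM in KO cells and 179 ± 25 CPM in WT cells (log2 fold change -1.72, adjusted p = 1.7e-05). The HP1 gene Cbx5 averaged 157 ± 25 CPM in KO cells and 439 ± 17 CPM in WT cells (log2 fold change -1.50). Cbx3, also an HP1 gene, averaged 13.7 ± 0.55 CPM in KO cells and 21.7 ± 0.88 CPM in WT cells (log2 fold change -0.66, adjusted p = 0.00036, limma). The HP1 gene Cbx1 averaged 108 ± 8.8 CPM in KO cells and 76.5 ± 3.8 CPM in WT cells (log2 fold change 0.49). Chd3, a NuRD helicase, averaged 391.6 ± 18 CPM in KO cells and 182 ± 6.9 CPM in WT cells (log2 fold change 1.11, adjusted p = 3.5e-06).

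**Figure D4:**
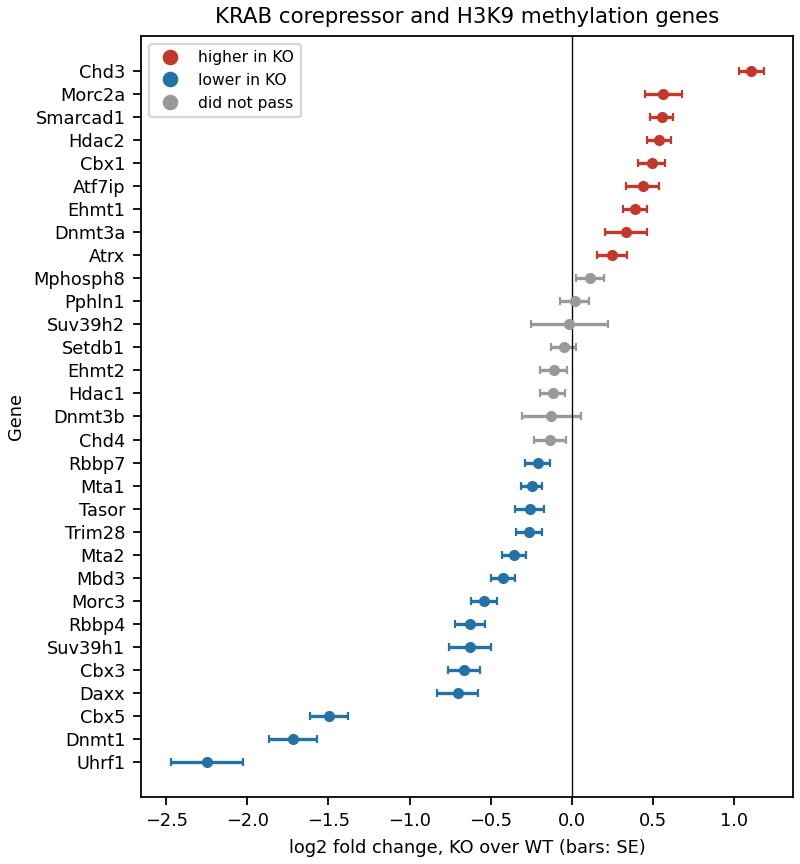
Log2 fold change, KO over WT, with its standard error, for the 31 tested genes of the KRAB silencing pathway and of H3K9 and DNA methylation. Chd3 is highest at 1.11, and Uhrf1, Dnmt1 and Cbx5 are lowest at -2.25, -1.72 and -1.50.

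By position, 17 chromosomes held at least 3 of the genes, and on 16 of them the median of the zinc finger genes had the same sign as that of the chromosome's other genes at a mean of at least 3 log2 CPM. Chromosome 6 counted among the 16 at a median of only 1.7e-05, beside 0.20 for other genes. The exception was chromosome 1, where 3 genes, none called, had a median of -0.15 beside 0.20. On chromosome 10, with only 2 of the genes, the medians were -0.23 and 0.20. Chromosome 7 held the most, 49 genes, of which 6 rose, 11 fell and 32 were not called, with a median of -0.05. Its other genes had a median of -0.03, with 28.3% higher and 34.1% lower. On chromosome 11, 8 of 11 rose and 1 fell, and their median log2 fold change was 0.51. Other genes there had a median of 0.45, with 64.3% higher and 14.2% lower. On chromosome 15, 6 of 8 fell and 1 rose, with a median of -0.56, beside -0.35 for other genes, of which 54.9% were lower and 13.0% higher. Both genes on chromosome 19 fell, where other genes had a median of -0.34, with 56.9% lower and 15.5% higher. On chromosome 8, 10 of 18 fell and 2 rose, with a median of -0.30 beside -0.13 for other genes, of which 39.7% were lower and 20.96% higher. On chromosome 17, 12 of 28 rose and 4 fell, with a median of 0.20 beside 0.13 for other genes, of which 37.3% were higher and 23.6% lower. With each chromosome's median over other genes subtracted, the median size of change was 0.25 in place of 0.29. By size alone, without an adjusted p rule, 8 genes were then higher and 10 lower by at least 2-fold. Zfp2, Zfp950, Zfp41 and Zfp740 were no longer among them, at 0.77, -0.78, -0.74 and -0.73. Zfp7, Zfp827 and Zfp57 came in, at 1.18, 1.02 and -1.13. The part of these chromosome-wide shifts in the single genes' changes was not tested.

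**Figure D5:**
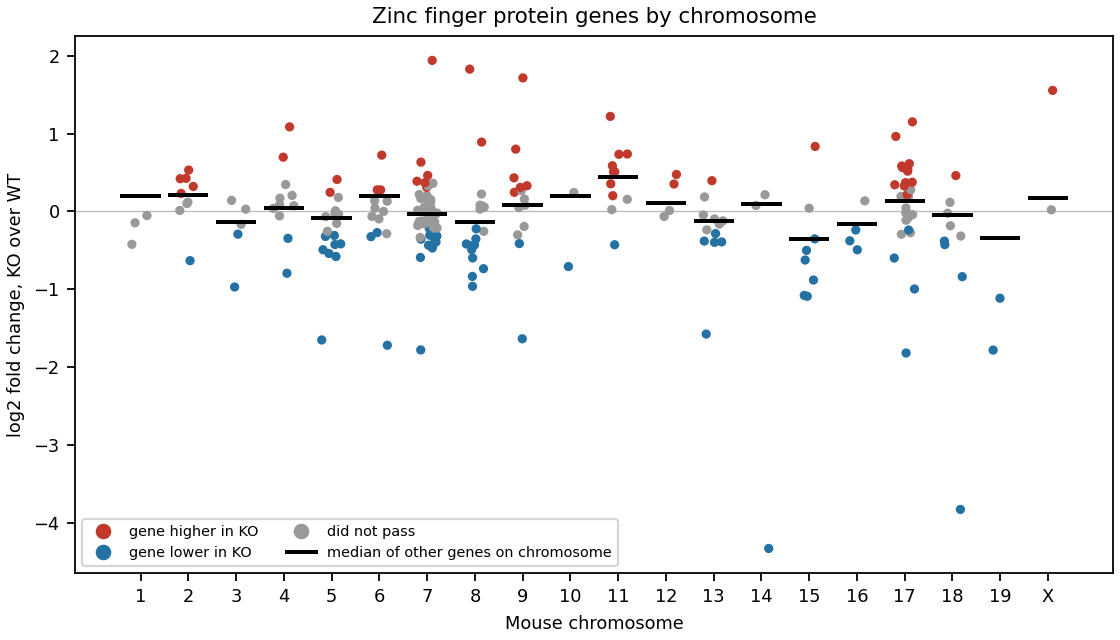
Log2 fold change, KO over WT, of each zinc finger gene (points) by chromosome, with the median of the chromosome's other genes at a mean of at least 3 log2 CPM (bars). On chromosome 11 the zinc finger genes' median is 0.51 and the other genes' 0.45, and on chromosome 15 they are -0.56 and -0.35.

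Taking members as neighbours where the gap was at most 1 Mb, 111 of the genes lay in 20 runs of 3 or more. The longest run, chr17:21008903-23564238, held 17 genes, of which 7 rose and 2 fell, where 34.3% of all genes tested were higher and 33.8% lower. Within it lie Zfp53, Zfp52, Zfp948 and Zfp760, of which 3 rose and Zfp948 fell. The 300 bases around their annotated starts, 250 before and 50 after, are shown because these neighbours lie side by side in one run and moved in opposite directions. They are from RefSeq on GRCm38.p6, all on the plus strand, at chr17:21488738-21489037, chr17:21535289-21535588, chr17:21566728-21567027 and chr17:21707491-21707790. Capitals mark CG dinucleotides.
Zfp53: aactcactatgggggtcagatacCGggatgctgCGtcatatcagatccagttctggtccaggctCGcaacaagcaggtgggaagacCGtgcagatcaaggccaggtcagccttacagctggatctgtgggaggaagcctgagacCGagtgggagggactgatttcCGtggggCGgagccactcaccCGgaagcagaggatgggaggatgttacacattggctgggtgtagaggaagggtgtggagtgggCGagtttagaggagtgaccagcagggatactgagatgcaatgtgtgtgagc
Zfp52: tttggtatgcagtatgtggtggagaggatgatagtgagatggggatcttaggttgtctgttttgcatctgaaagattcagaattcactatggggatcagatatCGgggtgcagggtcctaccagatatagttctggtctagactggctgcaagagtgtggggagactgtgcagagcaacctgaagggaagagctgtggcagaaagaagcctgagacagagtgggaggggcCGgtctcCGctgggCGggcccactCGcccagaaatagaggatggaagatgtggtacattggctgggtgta
Zfp948: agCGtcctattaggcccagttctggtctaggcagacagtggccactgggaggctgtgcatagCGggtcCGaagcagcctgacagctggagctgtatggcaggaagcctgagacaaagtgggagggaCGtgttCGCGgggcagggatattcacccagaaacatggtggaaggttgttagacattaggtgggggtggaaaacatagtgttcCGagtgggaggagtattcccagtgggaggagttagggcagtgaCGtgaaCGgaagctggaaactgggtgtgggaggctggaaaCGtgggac
Zfp760: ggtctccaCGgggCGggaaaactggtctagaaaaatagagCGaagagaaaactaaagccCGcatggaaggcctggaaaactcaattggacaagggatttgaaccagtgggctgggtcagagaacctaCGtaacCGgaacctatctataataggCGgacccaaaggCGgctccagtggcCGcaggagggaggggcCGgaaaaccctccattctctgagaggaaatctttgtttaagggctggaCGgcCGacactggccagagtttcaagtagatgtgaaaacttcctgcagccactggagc
They hold 9, 5, 10 and 12 CG dinucleotides. The longest run shared by Zfp53 and Zfp52 was 16 bases, by Zfp53 and Zfp948 14 bases, and by Zfp948 and Zfp760 9 bases. For Zfp52 and Zfp948 it was 13 bases, for Zfp52 and Zfp760 12 bases, and for Zfp53 and Zfp760 8 bases.

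Of these neighbours, Zfp52 averaged 50.5 ± 6.6 CPM in KO cells and 34.3 ± 6.0 CPM in WT cells (log2 fold change 0.56, adjusted p = 0.0073), and Zfp53 had a log2 fold change of 0.61 (adjusted p = 0.0039). Zfp948, the next gene, had 7.33, 6.96 and 7.59 CPM in KO libraries, against 25.6, 23.3 and 28.8 CPM in WT libraries (log2 fold change -1.82, adjusted p = 2.6e-06). Zfp760 had 24.3, 19.3 and 23.7 CPM in KO libraries, against 11.4, 10.2 and 8.65 CPM in WT libraries (log2 fold change 1.15, adjusted p = 0.00015). Neighbours in 1 run thus moved in opposite directions. Also in this run, Zfp677, Zfp994, Zfp995 and Zfp229 rose, at 0.52, 0.58, 0.34 and 0.33, and Zfp946 fell, at -0.60. The call of Zfp229 failed without any 1 library other than WT replicate 1, and with the replicate block (adjusted p up to 0.12 in limma). That of Zfp994 failed without KO replicate 1 or 2, or WT replicate 2 or 3 (up to 0.0878). That of Zfp995 failed without KO replicate 1 or 3 or WT replicate 2 or 3, with the replicate block and with the total of listed genes as scale (up to 0.142). The 49 other tested genes within 2 Mb had a median of 0.22.

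For the runs that follow, 34.3% of all genes tested were higher and 33.8% lower. Only some of the 20 runs are described, and others held few called genes. In the run chr7:29768552-30169750, 1 of 8 genes fell and none rose. In the run chr7:24081924-25227507, 1 of 7 rose and none fell. In the run chr17:32765496-33631779, 4 of 7 genes rose and none fell. The 79 other tested genes within 2 Mb, at a mean of at least 3 log2 CPM, had a median of 0.07. Zfp799 and Zfp81 had log2 fold changes of 0.96 and 0.54, and Zfp763 and Zfp563 had 0.38 and 0.37. The calls of Zfp763 and Zfp563 failed without KO replicate 1 or 2, or WT replicate 2 or 3 (adjusted p up to 0.0994 and 0.11 in limma). In the run chr8:69209038-69791178, 4 of 5 fell, beside a median of -0.05 for 64 such other genes within 2 Mb. Zfp964, Zfp866 and Zfp869 had -0.74, -0.49 and -0.44, and Zfp868 had -0.22. The call of Zfp868 failed without any 1 library other than WT replicate 1, with the replicate block and with quantile normalization (adjusted p up to 0.123 in limma). Zfp930, at 0.07, was not called (adjusted p = 0.57). In the run chr15:75616679-76892395, all 5 were called, 4 lower and 1 higher. The 59 such other genes within 2 Mb had a median of -0.35. Zfp41, Zfp707, Zfp251 and Zfp623 had -1.09, -0.88, -0.62 and -0.50. Zfp7 rose, with 35.6, 35.1 and 42.2 CPM in KO libraries, against 19.4, 22.6 and 21.1 CPM in WT libraries, next to Zfp251 with 26.8, 28.7 and 27.2 CPM in KO libraries, against 44.6, 43.0 and 40.002 CPM in WT libraries. Zfp7 is 95.5% identical to Gm14615 over 627 bases, so that its reads may be split between them. Zfp7 also overlaps Gm49527, a protein-coding gene on the same strand that is not listed, so that reads may be shared.

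A RefSeq promoter was given for 182 of the genes. They held a median of 15.5 CG dinucleotides, against 21 for the promoters of all genes tested, and KRAB genes held 12 against 19 for those without a KRAB box. The GC box GGGCGG, searched on both strands, was in 91 of the 182 zinc finger promoters and 66.1% of promoters of genes tested. CCAAT was in 46.7% of the zinc finger promoters and 39.2% of those of genes tested, and the letters CCGGAAG, known from ETS factors, in 22.5% of the zinc finger promoters and 18.7% of those tested. TATAAA was in 7.14% of the zinc finger promoters and 6.78% of those tested, and TGACGTCA in 2.75% of the zinc finger promoters and 3.32% of those tested. Genes called higher held a median of 12.5 CG dinucleotides, those called lower 17.5 and those not called 16. These are descriptions without a test.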

How the data were processed

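RNA from 3 KO and 3 WT libraries was prepared with a stranded mRNA kit, per the labels' protocols. Trimmomatic 0.39, STAR 2.7.3a, Subread 1.6.4 with featureCounts, edgeR and GRCm38 are named in the submitters' processing notes. The deposited values are log2 CPM per gene, made by the authors. The sources used here do not name the annotation, filter or strand setting. Whole reads could be worked back for 100% of values within 0.001 of a whole number, with a prior of 1 read, and CPM in the text is computed from those reads without the prior. Fold changes are from limma 3.58.1 in R 4.3.3 on the deposited log2 values, with an intensity trend, for 12616 genes above 0 log2 CPM in at least 3 of 6 libraries, with Benjamini-Hochberg adjustment over all of them. The adjusted p threshold was 0.05, and a fold change understates that of low genes because of the prior. All 225 members passed the filter. The design text calls the replicates biological, but each genotype is 1 line, so p-values measure the spread between libraries of a line.

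Fingers, KRAB boxes and SCAN domains were found in translated GENCODE M21 transcripts, in place of the RefSeq proteins planned, with profiles searched by hmmsearch 3.4 at an E-value of at most 1e-05. Divergent KRAB boxes, such as those of some Zkscan genes, were not matched. Near copies were searched with blastn 2.17.0+ at 95% identity or more over at least 500 bases, and 9 of 223 members had one. In simulated counts at a fixed dispersion of 0.01, 200 genes were changed, of which 198 passed the filter among 12083 genes tested. The fit found 99% of all 2-fold and 99% of all 4-fold changes and called 11 of 11885 unchanged genes. Changes under 2-fold were not simulated, nor was a share of changed genes near the 68.1% called here, so the result does not cover them.

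The members and lists were chosen with earlier results of these data known. The genes named are the 12 that rose most, the 12 that fell most, the 6 of highest level, called Zkscan and Zscan genes, members of the role lists, and those beside the threshold. Genes in the runs, the rows under the threshold and the silencing pathway genes given with values were chosen after their values were seen.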

Additional observations from a re-analysis of the deposited data

How the results depend on the processing

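With 1 library left out in turn, 35 to 54 zinc finger genes were higher and 56 to 62 lower, against 52 and 66 with all libraries, and 7 to 8 and 13 to 14 changed at least 2-fold. The called share of all genes tested was 60.0% to 66.0% with 1 library left out, against 68.1% with all libraries. The lowest count of higher zinc finger genes, 35, came without WT replicate 2, where the share of all genes was also lowest, at 60.0%. Of the 118 called genes, 32 failed under at least 1 alternative and 0 reversed, while 31 genes not called changed sign and 25 passed under at least 1. The replicate numbers gave no sign of pairing. Deviations of same-numbered libraries correlated at 0.10, 0.08 and -0.10, and those of different-numbered libraries at -0.22 to 0.18. So few values cannot settle whether the libraries were paired. A replicate block gave 46 higher and 63 lower zinc finger genes, with 66.5% of all genes tested called. Quantile normalization gave 62 and 60, moving the median of all genes to 0.06, and rescaling to the total of listed genes gave 50 and 70. The called shares of all genes tested were then 68.4% and 67.5%. The voom fit on recovered reads gave 54 and 67, with 68.2% of all genes tested called. The level that makes a member set the counts most: at a mean of at least 4 log2 CPM, 33 genes were higher, and 2 higher and 5 lower by at least 2-fold, because fewer genes were counted. At a mean of at least 2 log2 CPM, 12 were higher by at least 2-fold, and with a mean of 3 log2 CPM required in 1 line only, an alternative chosen after seeing the data, 11 were. Zfp207, which was not called, ran from -0.029 to 0.11 on the log2 scale as libraries were left out. Of the silencing pathway genes, 7 to 9 were higher and 11 to 14 lower. Myo1e ran from -3.42 to -3.31. The lowest count of a member in any library was 77 reads, which follows in part from the choice by mean level. The part of depth in the calls was not tested. Each genotype was 1 line.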
